A study of Mus musculus with 8 samples.

Results

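Neuritin (Nrn1), proenkephalin (Penk), choline acetyltransferase (Chat) and aromatic amino acid decarboxylase (Ddc) are 4 genes known from neurons and transmitter synthesis. They were chosen by name for signals that differed between T cell types or between days, and all 4 were found among the 29924 gene names on the arrays. The choice itself used their levels in every cell type at both days, so those levels are given as a description and without a test. The arrays hold mRNA of CD4 T cells sorted from pooled peripheral lymph nodes (pLN) of B6.Cg-Foxp3<tm1Mal> mice, in which Foxp3 expressing cells fluoresce through EGFP. The animals, of both sexes and 8 to 14 weeks old, had been injected s.c. with KLH in alum, and no group came from mice without that treatment. Naive CD4 T cells (GFP-, PD1 absent or low, GL7-), follicular helper T cells (TFH: GFP-, PD1 high, GL7+), regulatory T cells (Treg: GFP+, PD1 absent or low, GL7-) and follicular regulatory T cells (TFR: GFP+, PD1 high, GL7+ or GL7-) each gave 1 array on d12 and 1 on d25 post immunization (p.i.), from 25 ng of RNA of 8 to 15 pooled mice. The TFR gate thus admits GL7- cells that the TFH gate leaves out. There are thus 2 arrays of each cell type, which differ in day, and the fit below has the day as a term, so its p-values measure only how far the arrays depart from a shift between days that all cell types share, a spread that may be technical.

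Neuritin is a small protein held at the cell surface by a lipid anchor, and neurons make it in response to activity, where it promotes the growth of neurites and synapses. Proenkephalin is cut by proprotein convertases and trimmed by carboxypeptidases to the enkephalins, which act on the delta and mu opioid receptors. Choline acetyltransferase makes acetylcholine from choline and acetyl-CoA, and some CD4 T cells are known to carry it. Aromatic amino acid decarboxylase removes the carboxyl group of L-DOPA and of 5-hydroxytryptophan, which yields dopamine and serotonin, but it needs tyrosine hydroxylase or tryptophan hydroxylase to supply these substrates and the cofactor tetrahydrobiopterin to keep those hydroxylases active.

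What an array reports for such a gene is the signal of a probe of 60 bases, and the end of each probe is shown because 1 of the 4 genes differs from the others in it. Positions are those of the scanner files in build NCBI37 (mm9), all on the minus strand, and the letters are the last 30 bases of the probe, 5′ to 3′ in the sense of the mRNA, with a motif in capitals. The brightest Nrn1 probe lies at chr13:36817941-36818000, from base 1112 of transcript NM_153529, and a dimmer one at chr13:36822427-36822486. Penk has 1 probe at chr4:4060724-4060783, and Chat has 1 probe at chr14:33221421-33221480. Ddc has a probe at chr11:11714106-11714165, from base 1956 of its transcript, and another at chr11:11776262-11776321, from base 320.
Nrn1, brightest probe: tcacgtctttcttccacagtaccttgtttt
Nrn1, dimmer probe: ctggaggaagtgttgagagacaaggaggga
Penk: atctctcctgacgaaacatcAATAAAtgct
Ddc, from base 1956: atactaAATAAAcaacctatgtgcaatact
Ddc, from base 320: cagacatgctgtgtggtgctattggctgca
Chat: gctattcAGAAAGAAAGAAAGAAAGAAAGA
Capitals in Penk and Ddc mark AATAAA, the letters of a common polyadenylation signal, which 12.6% of the 39429 probes contain on the printed strand and 4.03% on the other strand (as TTTATT). Capitals in Chat mark a run of the repeated unit AAAG, of 23 bases, and only 7 of the 39429 probes (0.0178%) hold 16 or more bases of this repeat. The other strand of it, a run of CTTT, was found in 1 probe.

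The labels were compared with the genes that define the sorted cells. Foxp3 was between 37266 and 49262 relative units (RU, the normalized probe signal, with a floor of 20) on the 4 arrays of GFP+ cells and between 65.5 and 358 on the other 4. Pdcd1, which encodes PD1, was between 87316 and 303513 on the 4 arrays of follicular cells and between 2099 and 4621 on the rest. Per array, 46.3% to 50.4% of the probes were well above background and none was saturated. All d12 arrays were on 1 slide, and the d25 arrays of naive CD4 T and TFH cells were on another slide than those of Treg and TFR cells, so day and slide cannot be told apart. Of 12 neuron markers, Syt1, Rbfox3, Stmn2, Nefl, Gap43 and Uchl1 were at the floor on all 8 arrays, and 5 were well above background on at least 1 array. Among the latter, Map2 was at 226 and 575 RU in TFR, 25.2 and 129 in TFH, and 20 on the other 4 arrays, and Tubb3 was at 670 and 822 RU in TFH against at most 146 RU on the other 6 arrays. Their summed level was between 15293 and 21793 in naive CD4 T, 11602 and 17930 in TFH, 13902 and 16275 in Treg, and 11485 and 14770 in TFR cells. Most of this sum came from Snap25, whose probe holds a short repeat, and without it the sums were 2758 to 4369. Myeloid markers without a repeat probe summed to 5704 and 6165 RU in TFH and 3766 and 4144 in TFR cells, against 1770 and 1878 in naive CD4 T and 1238 and 1485 in Treg cells, mostly through Cd68, a lysosomal protein, and the part of myeloid cells in the results was not tested. B cell markers, summed over 8 genes, stood at 17810 on the TFH array of d25 and between 6013 and 10312 on the other 7 arrays.

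**Figure D1:**
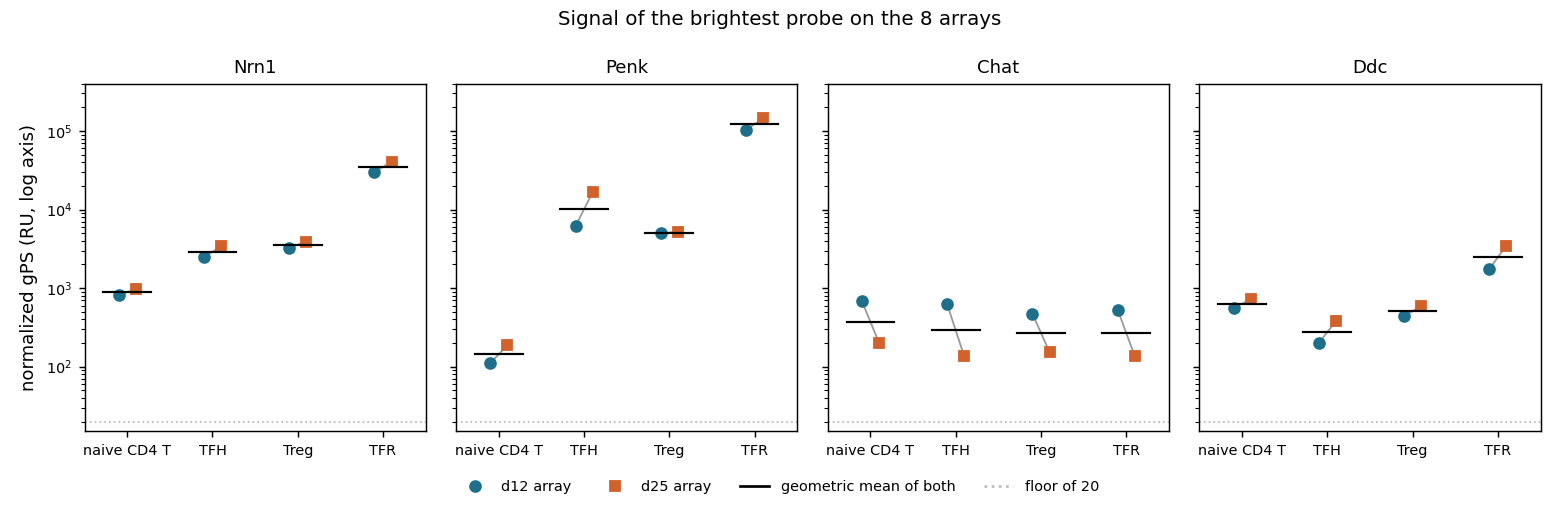
Normalized signal (gPS in RU, log axis) of the brightest probe of Nrn1, Penk, Chat and Ddc on each of the 8 arrays, 1 array per cell type and day, with circles for d12, squares for d25 and a line at the geometric mean of both. Nrn1, Penk and Ddc are highest on both TFR arrays, whereas the 4 Chat squares (135 to 202) all lie below the 4 Chat circles (470 to 682). Heights of different genes come from different probes and are not to be compared.

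Nrn1 was expressed at the highest level by TFR cells at both days. Its signal was 29819 RU at d12 and 40791 RU at d25 in TFR cells, 3251 and 3894 in Treg cells, 2473 and 3411 in TFH cells, and 815 and 972 in naive CD4 T cells. TFR arrays stood clear of all others, the naive arrays were the lowest, and Treg and TFH cells overlapped in between. TFR cells exceeded Treg cells by 9.17-fold at d12 and 10.5-fold at d25. They exceeded TFH cells by 12.1-fold and 12.0-fold. TFH cells in turn had 3.04-fold and 3.51-fold the level of naive CD4 T cells, and Treg cells 3.99-fold and 4.01-fold. The dimmer Nrn1 probe, which the files assign to a predicted transcript, was well above background on the TFR arrays alone, at 172 and 182 RU, and at 20 to 27.8 RU on the other 6. Of the neuron markers, Map2 was also highest on the TFR arrays, whereas Syp was lowest on them (1886 and 1821 RU). The 11 neuron markers without a repeat probe summed to 2758 and 3064 RU in TFR cells and to 3088 to 4369 RU on the other 6 arrays. The part of other cells in the Nrn1 signal was not tested.

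Penk covered a wider range than any other member, 1301-fold over the 8 arrays, and 0.0254% of the 15764 genes tested had a wider one. Naive CD4 T cells had 111 RU at d12 and 188 RU at d25, Treg cells 4974 and 5228, TFH cells 6176 and 16576, and TFR cells 103393 and 144562. The order naive, Treg, TFH, TFR held at both days without overlap, although the higher Treg array and the lower TFH array differed by only 1.18-fold. TFR cells had 20.8-fold the level of Treg cells at d12 and 27.7-fold at d25, and 16.7-fold and 8.72-fold the level of TFH cells. TFH cells had 55.6-fold the naive level at d12 and 88.4-fold at d25. Treg cells had 44.8-fold and 27.9-fold the naive level. The TFH rise from d12 to d25, 2.68-fold, was the largest day difference of Penk and fell on the array with the high B cell markers, and the part of B cells in it was not tested. In bulk arrays, fewer cells of a kind and less mRNA per cell cannot be told apart.

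Ddc went in opposite directions in the 2 kinds of follicular cell. At d12 and d25, respectively, it read 1750 and 3477 RU in TFR, 554 and 724 in naive CD4 T cells, 436 and 597 in Treg cells, and 201 and 379 in TFH cells. Both TFR arrays were above all others, both TFH arrays were below all others, and naive CD4 T and Treg cells overlapped. TFR cells had 4.01-fold the Treg level at d12 and 5.82-fold at d25. TFH cells were 2.76-fold below naive CD4 T cells at d12 and 1.91-fold below them at d25. The TFR level was 8.71-fold and 9.17-fold that of TFH cells. All 4 cell types were higher at d25, by 1.31-fold to 1.99-fold, and TFR and TFH cells showed the larger of these differences. The pattern rests on the probe near the 3′ end, because the Ddc probe from base 320 was at the floor on all 8 arrays.

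With both TFR arrays above the other 6, Nrn1, Penk and Ddc are 3 of the 1901 genes, or 12.1% of those tested, for which this held. With a gap of at least 2-fold the share was 2.14%. As they were selected on these levels, the count says nothing further about them.

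Chat did not share this pattern, and no level of it set follicular cells apart. Its signal was 682 RU at d12 and 202 RU at d25 in naive CD4 T cells, 621 and 135 in TFH cells, 470 and 154 in Treg cells, and 529 and 136 in TFR cells. What separated these values was the day: every d12 array was above every d25 array, by 3.38-fold in naive CD4 T, 4.59-fold in TFH, 3.05-fold in Treg and 3.88-fold in TFR cells. The mean difference was -1.88 on the log2 scale. All 4 cell types overlapped their neighbours, and TFR and Treg cells had the same mean, 269 RU. Of the genes tested, 2.07% had every d12 array above every d25 array, and 0.387% did so with a mean difference of at least 1 on the log2 scale.

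The repeat at the end of the Chat probe, printed above, occurs in 6 other probes, and most of these behaved alike between the days. Usp8, which encodes a deubiquitinase, has 1 probe, at chr2:126584484-126584543 on the plus strand, and Siglech, a marker of plasmacytoid dendritic cells, has its brightest probe at chr7:63034088-63034147 on the plus strand. Bases 12 to 41 of the Usp8 probe and the last 30 bases of the Siglech probe show the same unit in capitals.
Usp8: ttatcaAAAGAAAGAAAGAAAGAAAacagc
Siglech: tctgtctcAAAGAAAGAAAGAAAGAAAGAA
Usp8 was between 1077 and 1761 RU at d12 and between 303 and 494 RU at d25, a mean log2 difference of -1.68 with no overlap. A probe without a gene name (-1.67), AI790442 (-1.37) and Papola (-0.59) also had every d12 array above every d25 array. Siglech was not lower at d25 (0.03). Altogether 4 of these 6 probes had every d12 array above every d25 array, against 1.93% of the 16604 probes well above background on all arrays whose sequence held no run of 16 or more bases of a short repeat. The Chat mRNA has no second probe with which its day difference could be set against the repeat. Whether the Chat signal reports Chat mRNA was not tested.

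**Figure D2:**
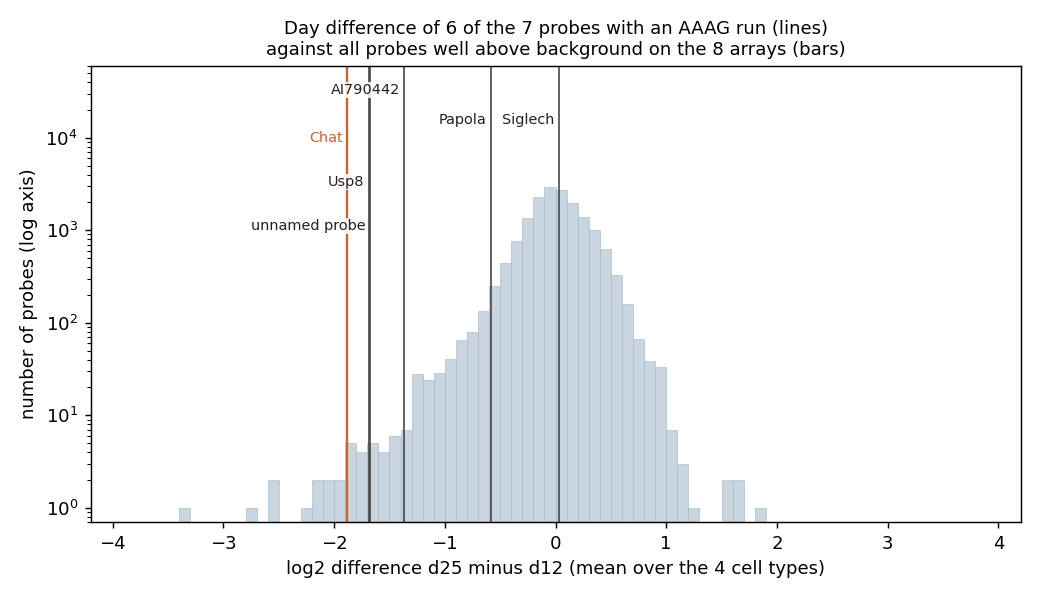
Number of probes (log axis) by log2 difference between d25 and d12, mean over the 4 cell types, for all probes well above background on the 8 arrays (bars), with lines at 6 of the 7 probes that hold an AAAG run. Chat lies at -1.88, 4 of the 6 lines lie below -1, and only Siglech (0.03) lies at the centre.

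Across the 8 arrays, the genes whose log2 levels ran most like those of a member were ranked by Pearson r, among genes tested with a range of at least 0.5 of the member's. The arrays come from 4 cell types at 2 days, so these coefficients describe shared steps between cell types and carry no test. For Nrn1 the closest of 1956 candidates were Scin (r = 0.99), which encodes the actin severing protein scinderin, M1ap (0.99) and Rec8 (0.99), a meiotic cohesin subunit. Scin was at the floor in naive CD4 T cells and read 1066 and 1267 RU in TFR cells. For Penk the closest of 358 were Cd83 (0.99), an activation marker, Cxcl10 (0.99), a chemokine, and Cd38 (0.99), an ectoenzyme. Cd83 went from 1600 and 1340 RU in naive CD4 T to 54728 and 91386 RU in TFR cells. For Ddc the closest of 3348 were 1810073O08Rik (0.97), Nipa1 (0.97), a magnesium transporter, and 1700019A02Rik (0.97). For Chat the closest of 6841 were an unnamed probe (0.99), TC1694101 (0.99) and B230334C09Rik (0.99), each of them lower at d25 in every cell type. The longest short repeats in these probes were 14, 15 and 9 bases, respectively. All are below the minimum of 16 bases used here for a repeat run, and the part of such repeats in the likeness was not tested.

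The other genes of the pathways these members belong to were examined in lists of 150 genes, of which 51 passed the filter on dim genes, namely a signal well above background at both days in 1 or more cell types. Of the 51, 38 had such a signal on all 8 arrays and 13 passed through some cell types only, and 65 of the 150 were at the floor on every array. Between TFH and naive CD4 T cells, 31 of 51 listed genes were called by limma at an adjusted p below 0.05 (15 higher, 16 lower), a share of 60.8% against 46.5% of all 15764 genes tested (20.9% higher, 25.6% lower). The median log2 difference was 0.17 in the lists and -0.07 in all genes. Between TFR and Treg cells, 18 were called (12 higher, 6 lower), 35.3% against 39.6% (18.7% higher, 20.9% lower), which is near the background. Between TFR and TFH cells, 16 were called (9 higher, 7 lower), 31.4% against 22.1% (11.6% higher, 10.5% lower). With only genes well above background on all 8 arrays, 7 of 38 listed genes were called in this comparison, against 2968 of all 13299. The share of listed genes was not the higher one there. Without either TFR array, fewer listed genes were called between TFR and TFH cells. Fewer of all genes were called as well. Without the naive array of d12 the count for TFH cells was 20, and without the Treg array of d25 that for TFR against Treg cells was 11. Between Treg and naive CD4 T cells, 5 were called, all higher, or 9.80% against 9.88% (5.89% higher, 3.98% lower). This count was 2 without the naive array of d25 and 1 without the naive array of d12 or without any of the Treg or TFR arrays. For 7 listed genes, or 13.7% of those tested against 8.49% of all genes, the change from Treg to TFR cells differed from that between naive CD4 T and TFH cells, among them Gal, Arc, Dbh and Npas4. With only genes well above background on all 8 arrays, 3 of 38 listed genes were called by this test, against 1112 of all 13299. The share of listed genes was not the higher one there either. Without the filter, 0 of 150 were called. Fewer of the 7 remained called with any single array left out. Without the TFR array of d12, 0 of the 7 remained called.

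**Figure D3:**
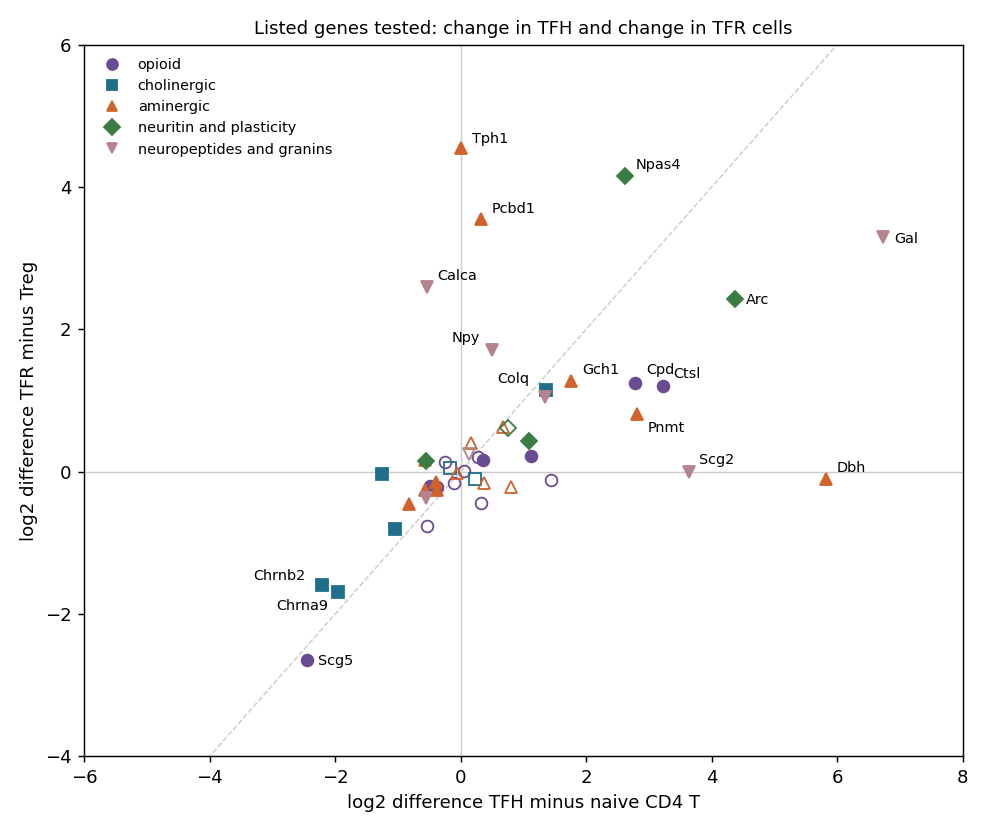
Log2 difference between TFH and naive CD4 T cells (horizontal axis) and between TFR and Treg cells (vertical axis) from the limma fit, 1 point for each listed gene that was tested and is reported here, shaped by list, filled where either difference was called, with a dashed line where both are equal. Gal and Dbh lie far to the right, Tph1 and Pcbd1 lie near the vertical axis at 4.54 and 3.56, and Scg5, Chrna9 and Chrnb2 are lower in both kinds of follicular cell. All points show fitted differences. Those with a side near the floor depend on it, and the text gives an at-least fold where a side was not well above background.

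Around Penk, the other opioid precursors were not in step with it. Pdyn and Pnoc were not well above background on any array, and Pomc was tested and not called in any comparison between cell types, with 304 to 561 RU over the 8 arrays. Of 12 genes for precursor processing, 7 were tested. In TFH against naive CD4 T cells 5 of these were called (3 higher, 2 lower), where 20.9% and 25.6% of all genes were. The convertases Pcsk1 and Pcsk2, which cut proenkephalin in endocrine cells, were not well above background on any array. Furin, a convertase of the secretory pathway, was 2.17-fold higher in TFH than in naive CD4 T cells (log2 1.12, SE 0.21, adjusted p = 0.012), a call lost without the naive array of d12. Cathepsin L (Ctsl), a protease that can also process proenkephalin, had 2681 and 2571 RU in naive CD4 T, 16790 and 35664 in TFH, 1788 and 2013 in Treg, and 3093 and 6216 in TFR cells. It was 9.32-fold higher in TFH than in naive CD4 T cells (log2 3.22, SE 0.33, adjusted p = 0.00196) and 5.58-fold lower in TFR than in TFH cells (log2 -2.48, SE 0.33, adjusted p = 0.0095). The rise of Ctsl in TFR against Treg cells, 2.31-fold, had an adjusted p of 0.0417, and leaving out any Treg or TFR array ended this call. The TFH array of d25, where Ctsl was highest, is the one with high B cell markers, and the call of TFR against TFH cells was lost without it, without either TFR array and with slide as the block.

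Scg5, which encodes the chaperone of the convertase PC2, fell in both kinds of follicular cell. It had 4414 and 4659 RU in naive CD4 T, 705 and 987 in TFH, 4034 and 4453 in Treg, and 530 and 868 in TFR cells, so that the follicular and the other arrays did not overlap. The fall was 5.44-fold in TFH (log2 -2.44, SE 0.18, adjusted p = 0.000796) and 6.25-fold in TFR cells (log2 -2.64, SE 0.18, adjusted p = 0.00127). Carboxypeptidase E (Cpe), which trims the cut peptides, was 8.93-fold higher in Treg than in naive CD4 T cells (adjusted p = 0.0209), a call lost without any of the naive, Treg or TFR arrays and with slide in place of day as the block. Carboxypeptidase D (Cpd) was at least 3.73-fold higher in TFH than in naive CD4 T cells, in which it was not well above background (adjusted p = 0.0088, and above 0.05 without the TFH array of d12). Pcsk1n, an inhibitor of PC1, and Ace, a peptidase that can degrade enkephalins, were lower in TFH than in naive CD4 T cells by 1.36-fold and 1.40-fold (adjusted p = 0.0112 and 0.0185), and each lost its call without either naive array, Ace also without the TFH array of d25. Of 5 genes for peptide degradation 4 were tested, among them Dpp3, which was 1.28-fold higher in TFH than in naive CD4 T cells (adjusted p = 0.0283) but was not called with any array left out or with slide as the block, and none was called in TFR against Treg cells.

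Of the receptors for these peptides, the delta receptor Oprd1 and the kappa receptor Oprk1 were at the floor on all 8 arrays. The brightest probe of the mu receptor Oprm1 had 14538 to 26529 RU, but it holds a short repeat of 27 bases, and the other 3 Oprm1 probes were not well above background on any array. Its difference between TFH and naive CD4 T cells, -0.38 (adjusted p = 0.0404), is therefore not carried by a second probe. The opioid growth factor receptor Ogfr, which binds met-enkephalin, had a clear signal on every array with 18920 to 20866 RU and was not called, with log2 differences of 0.06 (SE 0.08) in TFH against naive CD4 T and 0.01 (SE 0.08) in TFR against Treg cells. Oprl1, the nociceptin receptor, was tested and not called.

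Around Chat, genes that handle acetylcholine itself were dim, whereas the choline transporter like genes Slc44a1 and Slc44a2 were well above background on every array. The high-affinity choline transporter Slc5a7 was at the floor on all arrays, the vesicular acetylcholine transporter Slc18a3 was between 40.0 and 67.4 RU and well above background on 1 array, and acetylcholinesterase (Ache) was not well above background on any. Of 29 listed genes, 22 were not tested. Among the 7 tested, 5 were called in TFH against naive CD4 T (1 higher, 4 lower, where 20.9% and 25.6% of all genes were) and 4 in TFR against Treg cells (1 higher, 3 lower, where 18.7% and 20.9% of all genes were). Colq, which encodes the collagen tail that anchors acetylcholinesterase, was the gene that rose. By its brightest probe it had 368 and 466 RU in naive CD4 T, 862 and 1320 in TFH, 3170 and 3354 in Treg, and 7120 and 7326 in TFR cells, an order without overlap. The rise was 2.58-fold in TFH (log2 1.37, SE 0.17, adjusted p = 0.00327), and 2.21-fold in TFR over Treg cells (log2 1.15, SE 0.17, adjusted p = 0.00744), the latter not called without the TFR array of d12 or the Treg array of d25. By this probe TFR cells exceeded TFH cells by 6.77-fold (log2 2.76, SE 0.17, adjusted p = 0.00129). The dimmer Colq probe, well above background on 6 arrays, had 185 and 131 RU in Treg and 152 and 197 in TFR cells, which overlap. In TFH cells it had 95.2 and 76.0 RU, and in naive CD4 T cells 20 and 36.6. The mean over both probes did not call TFR against Treg cells. The brightest probe of the nicotinic receptor subunit gene Chrna9 fell 3.88-fold in TFH (adjusted p = 0.000403) and 3.24-fold in TFR cells (adjusted p = 0.00117), and its values were 673 and 625 RU in naive CD4 T against 190 and 148 RU in TFH cells. This probe is assigned to a predicted non-coding transcript, XR_376992. The other Chrna9 probe, assigned to NM_001081104, was well above background on 1 array only, with 31.7 to 91.2 RU. Whether the fall is one of the receptor subunit mRNA was not tested. Chrnb2 was at least 3.30-fold lower in TFH and at least 1.59-fold lower in TFR cells, the latter called only with every naive, Treg and TFR array in the fit and the former only with the naive array of d12. Neither was called without the filter. The fall in TFR cells was also not called with the authors' normalized values, with normexp background or without the floor. The choline transporter like gene Slc44a2 was 2.07-fold lower in TFH and 1.75-fold lower in TFR cells (adjusted p = 0.00134 and 0.00433), and Slc44a1 was 2.38-fold lower in TFH cells (adjusted p = 0.00673), a call that the mean over its 3 probes, of which the other 2 were not well above background on any array, did not give (adjusted p = 0.751).

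Around Ddc, the gene of a hydroxylase that supplies 5-hydroxytryptophan had a signal on the same TFR arrays. Tph1, the tryptophan hydroxylase outside the brain, had 191 RU at d12 and 2612 RU at d25 in TFR cells, 20 and 45.9 in Treg cells, and 20 on each array of TFH and naive CD4 T cells. It was well above background on the TFR arrays alone. The rise was at least 13.3-fold over Treg (adjusted p = 0.0226) and at least 20.5-fold over TFH cells (adjusted p = 0.0256). Tph1 passed the filter only through the TFR arrays, where it was high, so these p-values depend on that choice. Neither call held without the filter. Between the TFR arrays the signals of Tph1 and Ddc, which was 1.99-fold higher at d25, were both higher at d25. The call of TFR against Treg cells was lost without either Treg array, and the call of TFR against TFH was lost without any of the TFH or Treg arrays and with slide as the block. Mast cells are a known source of Tph1, and 7 mast cell and basophil markers summed to 628 and 645 RU in TFR, 343 and 639 in TFH, 384 and 629 in Treg, and 287 and 297 in naive CD4 T cells. Kit, which other cells also express, made up most of these sums. The mast cell and basophil markers Fcer1a and Mcpt8 were at the floor on all arrays, and Cpa3 and Mcpt4 were at the floor on the TFR arrays. On the Treg array of d25, the only one outside TFR cells where Tph1 was above the floor, Cpa3 (92.8 RU) and Mcpt4 (109 RU) were well above background, and the part of mast cells in the Tph1 signal was not tested. Tph2, the neuronal enzyme, was at the floor on all arrays. Tyrosine hydroxylase (Th), which makes L-DOPA, had 305 to 359 RU in TFR cells within a range of 305 to 456 RU, and was called lower in TFH than in naive CD4 T cells, by 1.31-fold (adjusted p = 0.0163), a call lost without either naive array.

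Signals of genes for the supply of tetrahydrobiopterin were higher in follicular cells for some and lower for others. Gch1, whose product catalyzes the first step of its synthesis, had 2743 and 2383 RU in naive CD4 T, 9089 and 8254 in TFH, 3737 and 3641 in Treg, and 9064 and 8771 in TFR cells. It rose 3.39-fold in TFH (log2 1.76, SE 0.09, adjusted p = 0.000293) and 2.42-fold in TFR cells (log2 1.27, SE 0.09, adjusted p = 0.0013), and the 2 follicular types overlapped. Pcbd1, which recycles the cofactor, had 338 and 754 RU in TFR cells and 41.8 to 128 RU on the other 6 arrays. It was at least 9.52-fold higher in TFR than in Treg cells (adjusted p = 0.0104), and this call was lost without any of these 4 arrays and without the filter. Pcbd1 passed the filter only through the TFR arrays, where it was high, so this p-value depends on that choice. Spr, which completes the synthesis, was 1.49-fold lower in TFH than in naive CD4 T cells (adjusted p = 0.00959) and 1.55-fold higher in TFR than in TFH cells (adjusted p = 0.0144). The first of these calls was lost without either naive array, and the second without either TFR array, without the TFH array of d25 and with slide as the block. Qdpr, which regenerates the cofactor, was 1.48-fold lower in TFH than in naive CD4 T cells (adjusted p = 0.0058). Of 8 listed cofactor genes, 7 were tested and 2 were called in TFR against Treg cells, both higher. This was 28.6%, below the 39.6% of all genes called in either direction (18.7% higher).

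**Figure D4:**
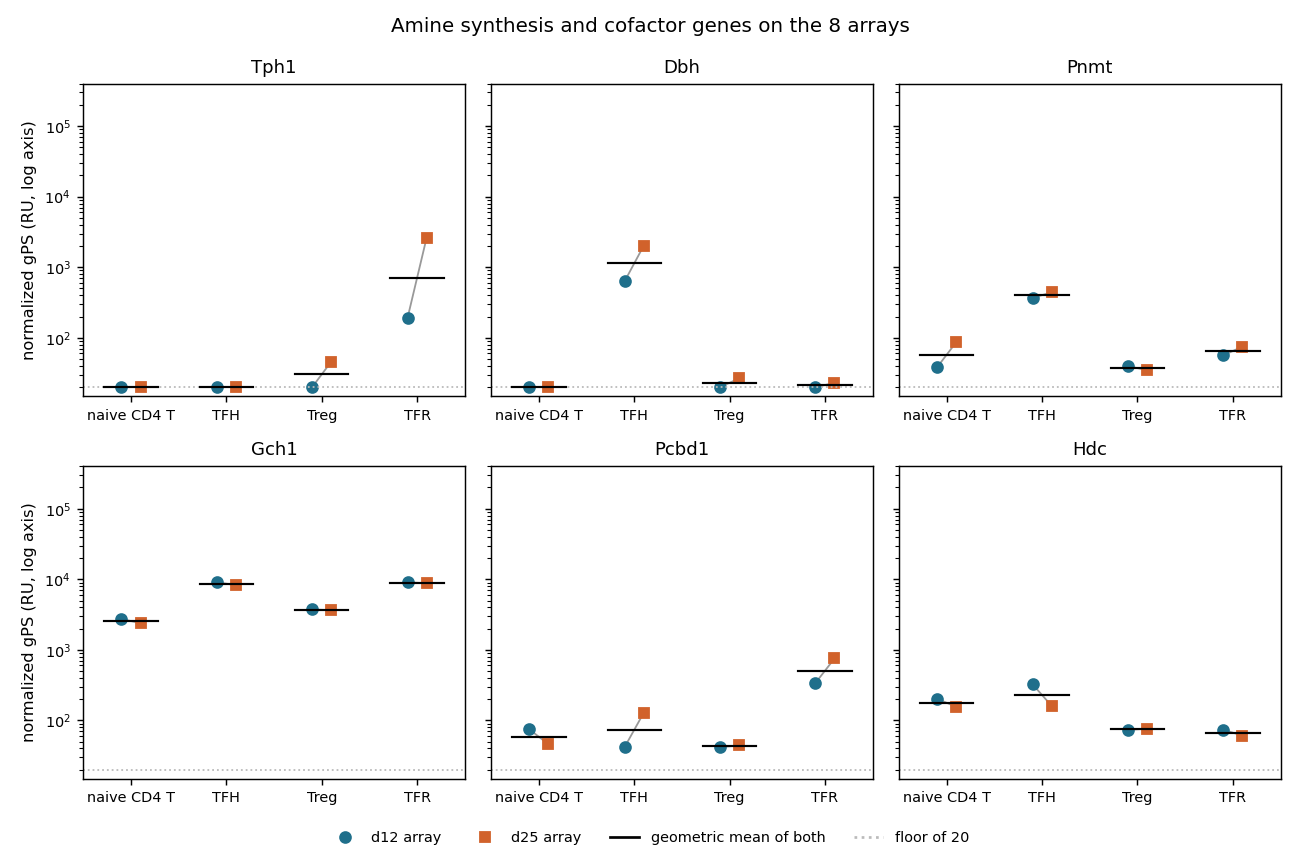
Normalized signal (gPS in RU, log axis) of 6 genes of amine synthesis and its cofactor on each of the 8 arrays, with circles for d12, squares for d25, a line at the geometric mean of both and a dotted line at the floor of 20. Tph1 leaves the floor in TFR cells (191 and 2612), Dbh and Pnmt in TFH cells (635 and 2023, 369 and 440), Gch1 is high in both follicular types, and Hdc is lower in TFR (73.9 and 60.9) than in TFH cells (325 and 161).

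The genes of the enzymes that turn dopamine into noradrenaline and adrenaline had their highest signal in the other kind of follicular cell. Dopamine beta-hydroxylase (Dbh) had 635 RU at d12 and 2023 RU at d25 in TFH cells and at most 26.6 RU on the other 6 arrays. It was at least 19.4-fold higher in TFH than in naive CD4 T cells (adjusted p = 0.000758) and at least 24.4-fold higher in TFH than in TFR cells (adjusted p = 0.00202). Dbh passed the filter only through the TFH arrays, where it was high, so its p-values depend on that choice. Pnmt, which methylates noradrenaline, had 369 and 440 RU in TFH and 34.9 to 86.8 RU in all others, at least 5.24-fold above naive CD4 T cells (adjusted p = 0.0028). It too passed the filter only through the TFH arrays, where it was high, so its p-value depends on that choice. TFH cells are those with the lowest Ddc signal. Histidine decarboxylase (Hdc), which makes histamine, was 3.41-fold lower in TFR than in TFH cells (adjusted p = 0.0124), with 73.9 and 60.9 against 325 and 161 RU, and was not called without either TFR array.

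Among transport, breakdown and receptors of amines, most genes were dim. The vesicular transporter Slc18a2 was well above background on 5 arrays, with 38.6 to 315 RU, and was not called, with log2 -0.22 (SE 0.77) in TFR against Treg cells. Monoamine oxidase A (Maoa) was at the floor on all arrays. No dopamine receptor and no serotonin receptor gene was tested.

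Around Nrn1, its homolog Nrn1l was near the lower end of detection, with 27.1 to 80.3 RU, well above background on 3 arrays and not called in any comparison. None of the AMPA receptor subunit genes, whose channels neuritin is linked to in neurons, was tested, and of 8 auxiliary subunits Cnih2 alone was, 1.47-fold lower in TFH than in naive CD4 T cells (adjusted p = 0.0192, lost without any of the 4 arrays). Of 7 genes that neurons switch on with activity 3 were tested. All 3 were called higher in TFH than in naive CD4 T cells, where 20.9% of all genes were. Arc, which regulates AMPA receptor uptake, had 371 and 518 RU in naive CD4 T, 8275 and 9947 in TFH, 467 and 481 in Treg, and 2357 and 2759 in TFR cells, a rise of 20.7-fold in TFH (log2 4.37, SE 0.13, adjusted p = 0.000118) and 5.39-fold in TFR cells (log2 2.43, SE 0.13, adjusted p = 0.000674). The transcription factor gene Npas4 was the other way round, with 261 and 362 RU in TFH and 1199 and 1674 RU in TFR cells. It was at least 4.82-fold higher in TFH than in naive CD4 T (adjusted p = 0.000292), and 17.8-fold higher in TFR than in Treg cells (log2 4.15, SE 0.13, adjusted p = 0.000371). Npas4 thus shared the order of the 2 follicular types with Nrn1 and Arc did not. Homer1, a scaffold of the synapse, was 2.13-fold higher in TFH cells (adjusted p = 0.00391), which the mean over its 5 probes did not call (adjusted p = 0.240).

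Of 24 listed precursors and granins, 7 were tested, and 4 of these were called higher in TFR than in Treg cells (18.7% of all genes were) and 3 in TFH than in naive CD4 T cells (20.9% of all genes were), Gal and Nmb in both. Galanin (Gal) had 311 and 283 RU in naive CD4 T, 25519 and 38935 in TFH, 329 and 323 in Treg, and 2286 and 4469 in TFR cells. This was 106-fold in TFH (log2 6.73, SE 0.30, adjusted p = 0.000238) and 9.82-fold in TFR cells (log2 3.30, SE 0.30, adjusted p = 0.0024), so that the order of the 2 follicular types was opposite to that of Penk. Calca, the gene of calcitonin and its related peptide, had 505 and 577 RU in TFR, 134 and 59.8 in Treg, and 20 to 42.4 RU on the other 4 arrays. It was 6.04-fold higher in TFR than in Treg cells (log2 2.59, SE 0.40, adjusted p = 0.00877) and at least 15.7-fold higher than in TFH cells, by 1 of its 2 probes, as the other was at the floor throughout. The call against Treg cells was lost without the Treg or the TFR array of d25. Neuropeptide Y (Npy) was at 77.1 and 140 RU in TFR cells and not well above background elsewhere, at least 1.96-fold over Treg cells (adjusted p = 0.0188, and above 0.05 without either TFR array or the Treg array of d25). Secretogranin II (Scg2), a granule protein, was at 481 and 128 RU in TFH cells and at the floor on the other 6 arrays, at least 4.24-fold over naive CD4 T cells (adjusted p = 0.00585). Scg2 and Npy each passed the filter only through the cell type in which they were high. The Npy call against Treg cells was lost without the filter. Neuromedin B (Nmb) was 2.53-fold higher in TFH (adjusted p = 0.00128) and 2.06-fold higher in TFR cells (adjusted p = 0.00395) by a pair of overlapping probes. Hcrt, the orexin precursor, was 1.47-fold lower in TFH cells (adjusted p = 0.0104, lost without the naive array of d25) and 1.3-fold lower in TFR cells (adjusted p = 0.0376), and 13 of 20 alternatives did not call the latter.

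**Figure D5:**
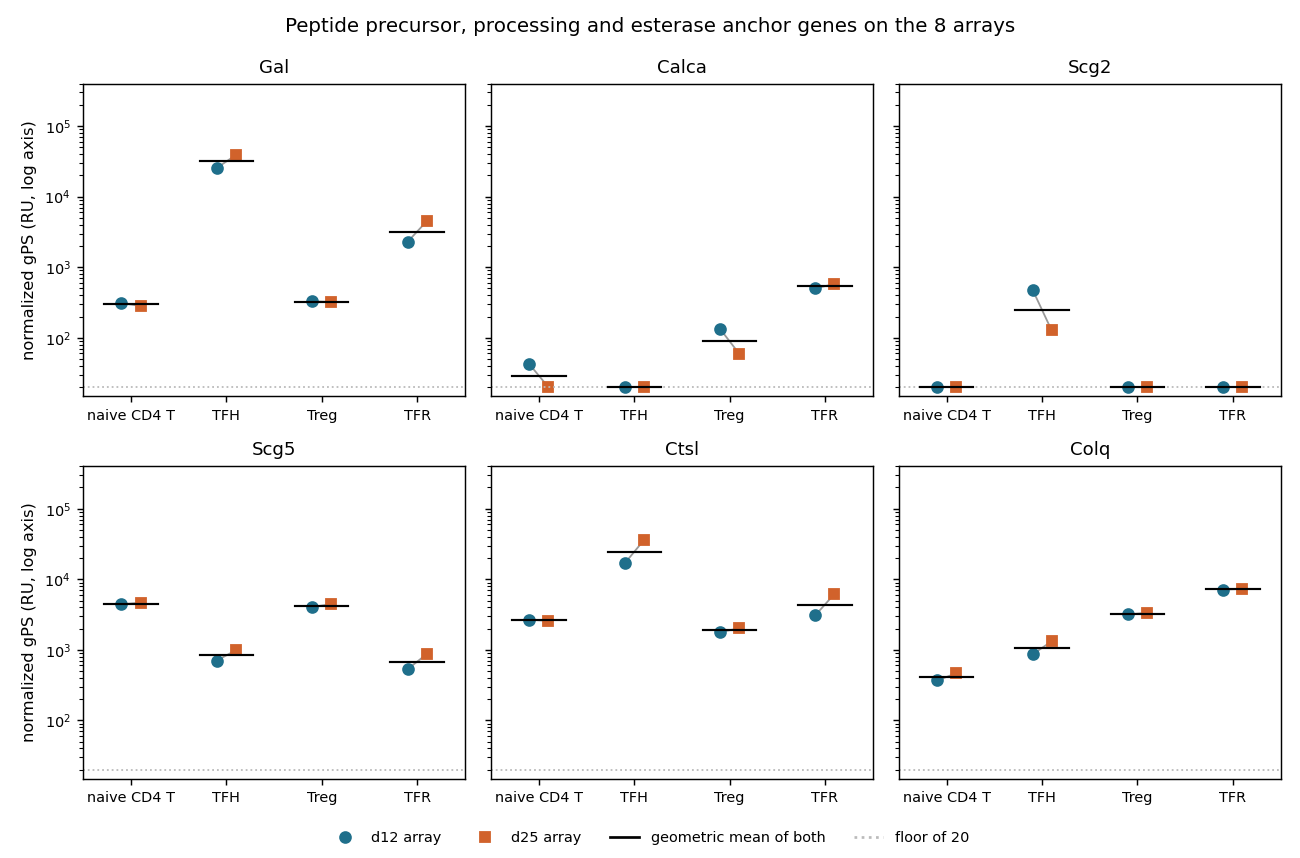
Normalized signal (gPS in RU, log axis) of 6 genes for peptide precursors, their processing and the esterase anchor on each of the 8 arrays, with circles for d12, squares for d25, a line at the geometric mean of both and a dotted line at the floor of 20. Gal, Scg2 and Ctsl are highest in TFH cells, Calca and Colq in TFR cells, and Scg5 is low in both follicular types.

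Between the days, no listed gene was called by limma (12 had an unadjusted p below 0.05), against 0.0698% of all genes tested. Nrn1, Penk and Ddc were higher at d25 in all 4 cell types, by 1.19-fold to 1.38-fold for Nrn1 and by 1.05-fold to 2.68-fold for Penk, and Chat was lower in all 4. With the day and the slide joined, none of the differences between days can be told apart from one between slides.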

How the data were processed

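RNA of 4 CD4 T cell types at d12 and d25 p.i. was hybridized to 8 one-color Agilent arrays. The authors deposited the green intensity of each spot (gProcessedSignal, gPS), background-subtracted by Agilent Feature Extraction 10.7.3.1, and a table of their normalized intensity values. Following their methods, the 4 spots of a probe were averaged by geometric mean, leaving out outlier flags, spots outside 1.42 interquartile ranges and spots with a pixel variation over 0.5 (86.5% to 89.2% of spots stayed). Arrays were quantile normalized, scaled to a 75th percentile of 1500 RU and set to a floor of 20. The brightest probe stood for a gene, and probes carry the gene names of the array's design. Differences were tested with limma 3.58.1 (R 4.3.3) on the log2 scale, with cell type and day as terms over all 8 arrays (3 residual degrees of freedom), with Benjamini-Hochberg adjustment over the 15764 genes whose signal was well above background at both days in 1 or more cell types, and the script was tested on simulated data. A study test needing replicates per cell type and day was not possible. Calls have an adjusted p below 0.05. Where a side was not well above background, an at-least fold replaces the fitted one. Dbh, Pnmt, Scg2, Tph1, Pcbd1 and Npy passed the filter only through the cell type in which they were high, so their p-values are not independent of it. The difference between both changes (TFR against Treg minus TFH against naive CD4 T) came from the same fit.

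The members and lists were chosen with earlier results of these data known. Named by rule were the members, the genes acting directly with them, up to 5 called genes per list with the largest differences (plus those with bounds), the 3 genes most alike and the gate genes. Results of some listed genes are not reported here, though counts over the lists include them. Further listed genes and the probes with the repeat were named after their values were seen. Alternatives changed scaling, background (normexp, offset 50), spot exclusion, probe, floor, filter, day term and threshold, used the authors' table, or left out each array. That table had the same normalization, and its correlation with the values used here was 0.999 on each array. The number of arrays limits the precision. Gene coordinates are those of the scanner files, and a gene table of another build was not used for positions.

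Of the other marker lists, summed levels over the 8 arrays were 30680 to 77516 RU for 6 glial, 21199 to 48567 for 6 antibody-secreting cell, 17710 to 30300 for 8 myeloid, 2902 to 6296 for 5 CD8 T and NK cell and 2427 to 5053 for 6 stromal and endothelial genes.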

Additional observations from a re-analysis of the deposited data

Results flagged for a closer look

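For 7 listed genes, the change from Treg to TFR cells differed from the change from naive CD4 T to TFH cells by the test of the difference itself (limma, adjusted p below 0.05), or 13.7% of those tested against 8.49% of all genes. With only genes well above background on all 8 arrays, the share of listed genes was not the higher one. With single arrays left out, 0 of these 7 remained called without the TFR array of d12, 2 without the TFR array of d25, either Treg array, the naive array of d25 or the TFH array of d12, and 3 without the naive array of d12 or the TFH array of d25. Calca and Spr lost the call with any single array left out, and Arc only without a TFR array. Arc differed by -1.94 on the log2 scale (SE 0.18, adjusted p = 0.00863), rising in both but more in TFH cells. Gal differed by -3.44 (SE 0.43, adjusted p = 0.0165), also with the larger rise in TFH cells. Dbh differed by -5.93 (SE 0.60, adjusted p = 0.0107), and it left the background in TFH cells alone. Npas4 differed by 1.54 (SE 0.18, adjusted p = 0.0152), with the larger rise in TFR cells. Calca differed by 3.13 (SE 0.57, adjusted p = 0.0396), not being well above background in naive CD4 T and TFH cells. Spr differed by 0.73 (SE 0.14, adjusted p = 0.0451). The values of Dbh and Calca depend on the floor, and Npas4 was not well above background in naive CD4 T cells. Among the members, Ddc went down by 1.2 from naive CD4 T to TFH cells and up by 2.27 from Treg to TFR cells on the log2 scale, on both days, a difference of 3.47 that was not tested.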

How the results depend on the processing

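No member difference that exceeded the spread between days changed direction under any alternative run. Nrn1 read by its dimmer probe gave log2 2.91 (TFR over Treg) and 3.14 (TFR over TFH), and 0.85 (TFH over naive CD4 T) as a mean over probes. With normexp background, Penk was 5.12 (TFH over naive CD4 T), Ddc 2.61 (TFR over TFH) and the Chat difference between days -1.23. The mean over both Ddc probes, 1 of them at the floor, gave 0.98 (TFR over naive CD4 T), -0.60 (TFH over naive CD4 T), 1.14 (TFR over Treg) and 1.58 (TFR over TFH). With each array left out in turn, the distance of the highest cell type from the next was 3.23 to 3.36 for Nrn1, 3.1 to 4.09 for Penk, 0.14 to 0.57 for Chat and 1.76 to 2.16 for Ddc, and the Chat difference between days was -1.97 to -1.77. Listed genes called in TFH against naive CD4 T cells numbered 20 at an absolute log2 difference of at least 1 and 20 to 32 with single arrays left out. In TFR against Treg cells they numbered 11 to 20 with single arrays left out. In TFR against TFH cells they numbered 9 without the filter, 7 with only genes well above background on all arrays, 10 with slide as the replicate block and 8 to 16 with single arrays left out. In Treg against naive CD4 T cells they numbered 2 without the filter, 1 with slide as the replicate block, 3 without the block, 2 at an absolute log2 difference of at least 1 and 1 to 6 with single arrays left out. Between days 2 were called with normexp and 2 with only genes well above background on all arrays, Oprm1 and Pomc each time, and 0 with any array left out. The tests of the difference between both changes gave 0 calls without the filter, 3 with only genes well above background on all arrays, 4 with slide as the block, 3 without the block and 2 to 7 with single arrays left out. The cause was not tested in any of these. Of 51 named pathway results, none reversed; 51 stayed called with all spots kept, 33 without the filter and 39 to 46 with an array left out. The labels give no replicate numbers, and d12 and d25 served as the block. With 2 arrays per cell type and the weakest signals near 30.3 to 68.2 RU, differences of dim genes are the least certain.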
